A study of Mus musculus with 4 samples.

Results

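Somatostatin (Sst) interneurons were examined in single-cell RNA of the mouse prefrontal cortex (PFC) at postnatal day 1 (P1), P4, P10 and in adult (P84). The cells were selected on their own counts of 4 genes: Gad1 and Gad2 together gave at least 2 of every 10000 UMIs of the cell, Lhx6 at least 1 UMI and Sst at least 5 of every 10000 UMIs. UMIs are unique molecular identifiers, each marking 1 captured mRNA molecule. By this rule 2238 of 59918 cells were Sst cells, with 348, 813, 604 and 473 in the P1, P4, P10 and adult libraries. In what follows, 4 values given without ages stand for these libraries in this order. All mice were c57bl/6 in the labels (C57BL/6J in the paper), with no allele or treatment that differed between groups, and the study's methods give females and 2 mice per age. Tissue was cut and digested with protease and papain after a bath with actinomycin D, which blocks transcription, and cells were captured on BD Rhapsody microwell cartridges, in which barcoded beads capture the 3′ ends of mRNA. Cells of the 2 mice of an age share 1 library and were not told apart here, so each age was 1 sample, no difference between ages could be tested, and all intervals below are 95% intervals that cover counting error only.

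Sst interneurons are GABAergic neurons born in the medial ganglionic eminence (MGE), the ventral forebrain zone whose neurons express the LIM homeobox factor Lhx6. In the mature cortex most of them target the dendrites of pyramidal neurons, the best known being Martinotti cells with axons in layer 1, and a small class of long-range projecting cells expresses Nos1, Chodl and Npy. Somatostatin itself is a secreted peptide that acts through inhibitory G protein-coupled receptors, and its gene is a classical target of cAMP signalling through CREB. The first postnatal weeks are when these cells finish migrating, are thinned by programmed cell death and form synapses.

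The 4 libraries held 200198548 to 340724049 UMIs. The depth of the Sst cells differed between ages, with a median of 30933.5, 15871, 24043 and 19262 UMIs per cell. Levels are therefore given as UMIs per 1000000 UMIs (CPM), summed over the Sst cells of an age and divided by all UMIs except those of mitochondrial and ribosomal protein genes. The P1 file came from another version of the processing pipeline than the other 3, and cells of P1 with a Y-linked UMI numbered 226 of 348, against 0 at P4, 3 at P10 and 1 in adult, although the methods name female mice. At P1 210 cells had a UMI of Xist, and 94 had both. Pipeline, library and age cannot be told apart at P1, so P4 and adult are the main pair compared, and P1 is given beside them. No cell barcode was shared by Sst cells of any pair of libraries.

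Sst cells made up 3.01% of cells at P1 (exact binomial interval 2.71% to 3.34%), 4.28% at P4 (3.99% to 4.57%), 3.95% (3.65% to 4.28%) by P10 and 3.36% (3.07% to 3.67%) of adult cells. The intervals of P1 and adult lay below that of P4, while the interval of P10 overlapped it. This order rests on the Sst limit. With a limit of 20 per 10000 the shares were 1.35%, 2.498%, 3.33% and 3.08%, so that adult lay above P4. A share of captured cells depends on how every other cell type survived dissociation. Among cells that met the Gad and Lhx6 limits, the share with Sst at the limit was 27.4%, 37.9%, 43.9% and 53.6%, higher at each later age. Over the same libraries the level of Lhx6 was lower at each step. Without that condition the adult share of Sst cells was 5.22% and the P1 share 3.03%.

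**Figure D1:**
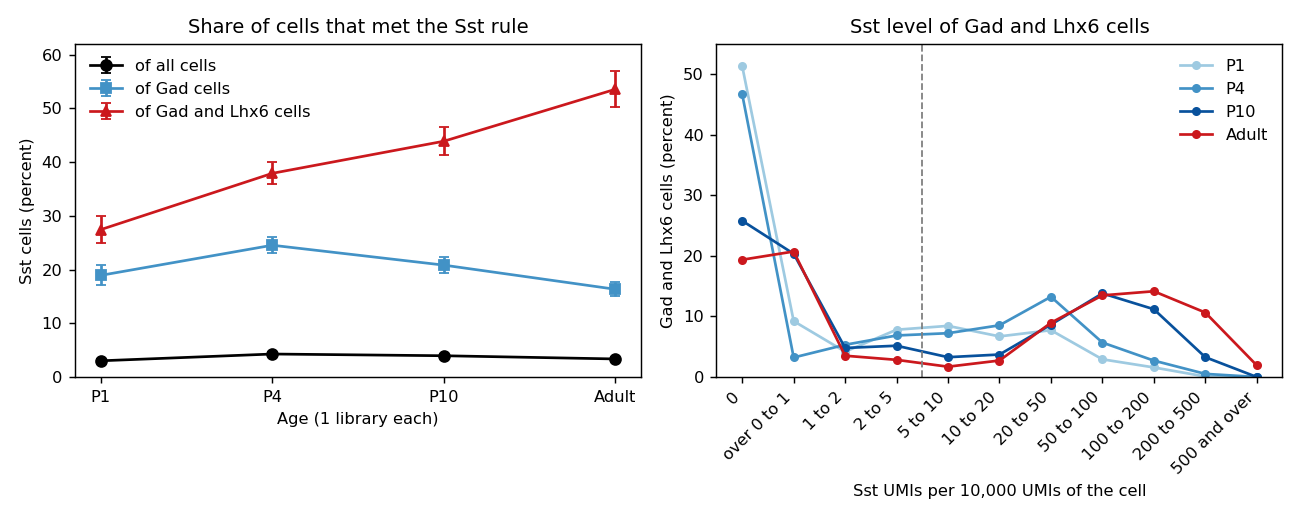
The left panel plots the percent of cells that met the Sst rule at each age, out of all cells, of Gad cells and of Gad and Lhx6 cells, with 95% binomial intervals. The right panel plots the percent of Gad and Lhx6 cells in each class of Sst level, with the limit of the rule as a dashed line; the adult curve has its second peak at 100 to 200 UMIs per 10000 and the P4 curve at 20 to 50.

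The Sst level within the members widened with age. The lowest, median and highest P1 cell had 5.05, 17.97 and 201 Sst UMIs per 10000. The same 3 values were 5.03, 24.1 and 400.2 for P4 cells, 5.03, 73.0 and 448 for P10 cells and 5.07, 99.8 and 789 for adult cells. The low end is set by the rule and the upper end is not. In the young libraries the limit cut through a continuous slope of cells, whereas few adult cells lay near it. From 5 to 10 Sst UMIs per 10000 there were 107, 155, 45 and 15 cells, and just outside, from 2.5 to 5, there were 85, 106, 50 and 15. At P4 cells on both sides of the limit had like levels of Satb1 and Npy, which the rule did not use, with Satb1 at 807 CPM inside and 751 CPM outside and Npy at 268 and 249.9 CPM. In adult the cells just inside the limit had Reln at 36.3 CPM, against 863 CPM in all adult Sst cells.

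The defining markers Gad1, Gad2, Lhx6 and Sst are the genes that the rule used, so their presence was fixed by it and is no check of the label. Of the genes known from Sst cells that the rule did not use, Satb1 was at 749.8 to 1119 CPM and Npy at 1027 to 2706 CPM over the 4 libraries, and the label was kept. In Gad and Lhx6 cells below the Sst limit Satb1 was at 436 CPM at P4 and 425 CPM in adult. In Sst cells it was at 1082 and 799 CPM, within 2-fold of these in adult. Npy in the cells below the limit was at 145 and 437 CPM. In Sst cells outside the Nos1 and Chodl cells described below, Npy was at 379 CPM at P1 and 359 CPM at P4. The 5 markers of microglia summed to 5.50, 2.02, 45.2 and 87.4 CPM in Sst cells, against 8188 to 13209 CPM in microglia. The 8 glutamatergic markers summed to 316, 414, 297 and 342 CPM, against 2562 to 3629 CPM in glutamatergic cells of the same libraries. Microglia and glutamatergic cells were chosen by markers in these lists, so their own high sums were set by that choice. In Gad and Lhx6 cells below the Sst limit the glutamatergic markers summed to 638, 641, 391 and 401 CPM. Within that list the vesicular transporter Slc17a7 was at 3.54 CPM in P1 and 230.1 CPM in adult Sst cells. The 7 markers of the oligodendrocyte lineage summed to 50.6, 78.2, 104 and 444 CPM. Astrocyte markers summed to 33.7, 92.5, 90.9 and 133 CPM and vascular markers to 6.90, 14.9, 52.0 and 45.3 CPM. In the other direction, Sst was at 56.0 CPM in adult glutamatergic cells and 257 CPM in adult microglia, so Sst UMIs were also present in cells of other types. The part of such RNA in the levels below was not tested.

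Around the transcription start of Sst, the sequence that CREB binds lies close by, and it is shown beside that of cortistatin (Cort), the paralogous peptide gene whose level also was higher at later ages. Both windows are given in the direction of transcription, as RefSeq annotates the starts on GRCm38.p6, with capitals marking the cAMP response element TGACGTCA in Sst and the shorter CGTCA, its end, in Cort.
Sst, chr16:23890874-23890903, minus strand: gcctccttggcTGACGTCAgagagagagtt
Cort, chr4:149126764-149126793, minus strand: ctccggcttgtgCGTCAccgcgtgagtgtg
The Sst element begins 48 bases before the RefSeq start. In the 250 bases before the start, TGACGTCA was found in 508 of 32851 mouse promoters (1.55%, both strands), and the shorter form, read TGACG on one strand and contained in the full element, in 5836 (17.8%, both strands). The same 250 bases of Npy held neither. GENCODE M21 begins the Sst gene (chr16:23889573-23890958) further upstream, so that the printed Sst window lies inside its gene model. A match describes the letters only.

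Most neuropeptide transcripts were higher in adult than at P4. Of 12 neuropeptide genes tested, 10 were at least 2-fold higher in adult and 0 at least 2-fold lower, where 10.8% of all 9334 genes tested were that much higher and 15.5% that much lower. These 2 shares are the background for every count of adult over P4 given below. Sst itself, which the rule used, is 1 of the 10, and so is Vip, whose share among adult Sst cells did not exceed that in microglia (given below). A gene was tested when its mean over the 4 ages was at least 10 CPM, so a gene low at P4 could pass through later ages. Crh and Vip, at 7.34 and 2.18 CPM at P4, passed in this way. Nts, also among the 13 genes of the list, did not pass. It was at 6.94 CPM at P4 and 3.13 CPM in adult, a log2 ratio of -1.15 (-1.82 to -0.52). The median log2 ratio of the list was 2.0, against -0.15 over all genes tested. By step, 7 of 12 were at least 2-fold higher at P4 than at P1 (4.09% of all genes tested), 10 at P10 than at P4 (4.19% of all genes tested) and 2 in adult than at P10 (4.51%). Vip is 1 of the 7, and its log2 ratio of P4 over P1 was -1.22 after each cell was thinned to 2000 UMIs. Against P1, 12 of 12 were at least 2-fold higher in adult (14.4%). Sst was at 3385, 4265, 9365 and 15461 CPM. Cort was at 44.5, 73.5, 279.5 and 357 CPM, so that both peptides had their widest step between P4 and P10.

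Npy, the peptide of many Sst cells, was at 1027, 1456, 1895 and 2706 CPM. Its log2 ratio of adult over P4, 0.89 (0.87 to 0.92), fell short of 2-fold. This ratio is of the sum over all Sst cells. In the Sst cells outside the Nos1 and Chodl cells described below, Npy was at 359 CPM at P4 and 1905 CPM in adult. In the Nos1 and Chodl cells Npy was at 16762 and 20937 CPM. Pdyn, the dynorphin precursor, was at 3.82, 32.8, 187 and 323 CPM and had a log2 ratio of adult over P4 of 3.30 (3.15 to 3.45). Crh, corticotropin-releasing hormone, had 2 UMIs in all P1 Sst cells and was at 7.34, 61.3 and 103 CPM in the later libraries. Crhbp, which encodes the protein that binds and sequesters this hormone, was at 27.8, 61.5, 389 and 728 CPM. The transcript levels of both Crh and Crhbp were thus higher at each later age. The log2 ratios of adult over P4 were 3.82 for Crh and 3.57 for Crhbp. In Gad and Lhx6 cells below the Sst limit they were 1.95 and 4.59. Penk (proenkephalin, 16.3, 28.5, 139 and 115 CPM) and Tac1 (the substance P precursor, 5.69, 32.6, 119 and 93.9 CPM) were highest at P10. Pnoc, which encodes nociceptin, was at 82.9 CPM at P10 and 29.9 CPM in adult, the 1 peptide at least 2-fold lower in adult than at P10. Vip, a marker of another interneuron class, was at 55.2 CPM in adult Sst cells. After each cell was thinned to 2000 UMIs, Vip was found in 1.48% of adult Sst cells and 2.99% of adult microglia, so its share among Sst cells did not exceed this background.

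**Figure D2:**
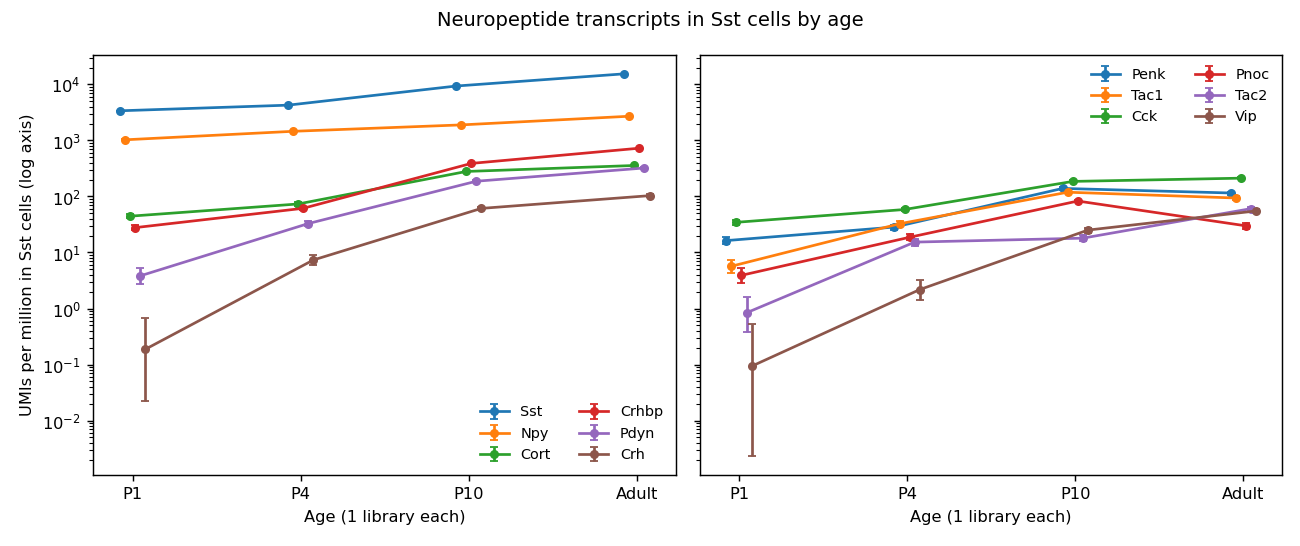
Level of 12 neuropeptide transcripts in Sst cells (CPM, log axis) at each age, with 95% Poisson intervals; each age is 1 library. Sst goes from 3385 at P1 to 15461 in adult and Pdyn from 3.82 to 323, while Penk, Tac1 and Pnoc are highest at P10.

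Of the 16 genes that make and store peptides, all were tested and 8 were at least 2-fold higher in adult than at P4 and 0 at least 2-fold lower, with a median log2 ratio of 1.14. The granin-like precursor Vgf was at 31.6, 89.8, 731 and 1247 CPM. Scg2, secretogranin II of dense core vesicles, was at 41.8, 190.2, 747 and 1183 CPM. Ptprn, a membrane protein of these vesicles, was at 31.0, 84.7, 249.3 and 510.3 CPM, and Resp18 at 10.3, 29.8, 96.3 and 390.2 CPM. The log2 ratios of adult over P4 of Vgf, Scg2, Ptprn and Resp18 were 3.79, 2.64, 2.59 and 3.71 in Sst cells. In Gad and Lhx6 cells below the Sst limit they were 4.30, 4.40, 2.60 and 3.09. The members differed among the processing enzymes. Pcsk1, a prohormone convertase, was at 8.79 CPM at P4 and 43.5 in adult and Pam, which amidates peptides, at 159 and 699 CPM, whereas carboxypeptidase E (Cpe, 551 and 843 CPM) and Scg3 (410.0 and 368 CPM) stayed within 2-fold.

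Of 7 genes of GABA synthesis and transport tested, 4 were at least 2-fold higher in adult than at P4 and 0 lower, with a median log2 ratio of 1.16. Gad1 and Gad2, which the rule used, are 2 of the 4, and among the other 5 genes Slc32a1 and Abat were higher. Their log2 ratios of adult over P4 were 1.16 and 2.20 in Sst cells. In Gad and Lhx6 cells below the Sst limit they were 2.32 and 2.74, so these differences were not particular to Sst cells. Gad1 was at 498, 677, 927 and 1847 CPM and Gad2 at 420.5, 358, 1272 and 2105 CPM. Gad2 had its lowest level at P4, and Gad1 its lowest at P1. The vesicular GABA transporter Slc32a1 was at 194, 284, 564 and 633 CPM. Abat, which breaks down GABA, was at 71.1 CPM at P4 and 326 CPM in adult.

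Of 23 transcription factors of the MGE lineage and of GABAergic neurons tested, 0 were at least 2-fold higher in adult than at P4 and 6 were lower (Maf, Npas3, Nr2f2, Nfib, Cux2 and Lhx6), where 10.8% and 15.5% of all genes tested were, with a median log2 ratio of -0.85. Against P1, 15 of 23 were at least 2-fold lower in adult, where 23.4% of all genes tested were. Lhx6 is 1 of the 6 and 1 of the 15, and since the rule asked for at least 1 UMI of it, its level is a description. Lhx6, needed for the placement and identity of MGE interneurons, was at 688, 571, 327 and 205 CPM. Sox6, a factor of the same lineage, was at 345, 247, 159 and 136 CPM. Satb1, a chromatin organiser needed for Sst cells to mature, stayed within 2-fold, between 1119 CPM at P1 and 749.8 CPM at P10. Npas3 had the widest ratio of the list, from 245 CPM at P4 to 66.2 CPM in adult (log2 ratio -1.89, -2.02 to -1.76). The orphan nuclear receptor Nr2f2 was at 371 CPM at P4 and 143 CPM in adult. Exceptions with values a little higher in adult were Dlx6, at 82.1 CPM at P4 and 97.1 CPM in adult, and Etv1, at 43.6 and 64.6 CPM.

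Genes of immature neurons were lower in adult in every case. All 20 were at least 2-fold lower in adult than at P4, with a median log2 ratio of -3.18 (1 of them, Igfbpl1, with 0 adult UMIs and set at a floor of 3 UMIs). The lower levels came late. From P1 to P4, 1 gene was at least 2-fold higher and 2 lower, where 4.09% and 5.42% of all genes tested were, and the list median was -0.01. From P4 to P10, 7 were at least 2-fold lower (3.55% of all genes tested), and from P10 to adult 18 were (6.97% of all genes tested), with a median of -2.24. Doublecortin (Dcx), a microtubule protein of migrating neurons, was at 2725, 1991, 439 and 42.1 CPM. Sox11, a transcription factor of young neurons, was lower from P4 on, at 1416, 490.2, 76.3 and 22.8 CPM. The surface protein Cd24a was at 519, 557, 90.4 and 4.80 CPM. Gap43, a growth cone protein, was highest at P4 with 4321 CPM and was still at 980.1 CPM in adult.

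Of 12 receptors and other genes of migration and guidance tested, 5 were at least 2-fold lower in adult than at P4 and 0 higher, with a median log2 ratio of -0.72, and 1 of the 5 is Dcx, which is also in the list above. Cxcr4, the chemokine receptor that keeps migrating interneurons in their streams, was at 47.6, 19.8, 9.99 and 3.35 CPM. The netrin receptor gene Dcc was at 117 CPM at P1 and 7.98 CPM at P4, a step that coincides with the change of pipeline. In glutamatergic cells of the same libraries Dcc was at 254 and 7.85 CPM. Erbb4, the neuregulin receptor of interneurons, was at 719 CPM at P1 and 289, 299 and 365 CPM later.

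No tested gene of programmed cell death was 2-fold higher in adult than at P4. Of 12 tested, 6 were at least 2-fold lower in adult than at P4 (among them Bax, Bak1, Bbc3, Apaf1 and Pcdhgc4), with a median log2 ratio of -0.87. Bbc3, which encodes the activator PUMA, was at 8.48, 30.7, 35.1 and 7.37 CPM. The anti-apoptotic Bcl2l1 stood at 66.1, 69.5, 67.9 and 73.7 CPM.

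Receptor subunits of one family differed in direction. Of 11 GABA-A receptor subunits tested, 6 were at least 2-fold higher in adult than at P4 and 1 lower, with a median log2 ratio of 1.06. Gabra4, an alpha subunit, was at 16.2, 29.4, 70.5 and 119 CPM. Gabra5, an alpha subunit found mostly outside synapses, was at 70.5, 133, 120.5 and 37.6 CPM. Gabra3 stayed within 2-fold at 484 CPM at P4 and 356 CPM in adult. Among 13 ionotropic glutamate receptor subunits tested, 3 were at least 2-fold higher in adult (Grin1, Grin2a and Gria3) and 1 lower (Grin2d), beside 10.8% and 15.5% of all genes tested, with a median log2 ratio of 0.21. The NMDA receptor subunit Grin2a was at 45.2 CPM at P4 and 239 in adult, Grin2b at 498 and 575, and Grin2d at 180.2 and 78.5. Grin3a, an NMDA receptor subunit enriched in Sst cells, was at 1536, 1855, 1592 and 977 CPM. The kainate receptor subunits Grik1 and Grik2 were at 544 and 777 CPM at P1 and at 243 and 194 CPM at P4.

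Sodium channel genes differed in direction. Of 7 sodium channel genes tested, 4 were at least 2-fold higher in adult than at P4 (among them Scn1a, Scn8a and Scn2b) and 1 lower (Scn3a), with a median log2 ratio of 1.49. Scn1a, the sodium channel gene of Dravet syndrome, was at 82.7, 43.4, 92.8 and 331 CPM. Scn2b, an accessory subunit, was at 11.0, 13.9, 85.1 and 347 CPM. Scn3a, the fetal alpha subunit, was at 325, 249.8, 168 and 81.1 CPM. Scn3a was thus lower at each later age, while Scn1a was lowest at P4 and highest in adult.

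Of 18 potassium and HCN channel genes tested, 8 were at least 2-fold higher in adult than at P4 and 1 lower, with a median log2 ratio of 0.90. The axonal channel gene Kcna2 was at 32.1, 44.8, 117 and 461 CPM. Kcnc1 and Kcnc2, which encode the fast Kv3 channels, were at 96.0 and 204 CPM at P4 and at 429 and 815 CPM in adult. Hcn4, a channel of the hyperpolarisation-activated current and the 1 lower gene, was at 28.2, 26.6, 13.5 and 6.81 CPM. Of 8 chloride transport genes tested, 1 was at least 2-fold higher in adult than at P4 and 1 lower, shares near the 10.8% and 15.5% of all genes tested. The higher one was the neuronal chloride extruder gene Slc12a5 (KCC2), at 125, 188, 292 and 459.9 CPM. Its counterpart Slc12a2 (NKCC1), which loads chloride, was at 59.2, 44.8, 39.8 and 58.4 CPM, and the lower one, the kinase gene Oxsr1, was at 93.9 CPM at P4 and 35.5 CPM in adult.

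Of 17 presynaptic genes tested, 9 were at least 2-fold higher in adult than at P4 and 0 at least 2-fold lower, with a median log2 ratio of 1.09. Stx1a, which encodes a SNARE protein of the plasma membrane, was at 149.6 CPM at P4 and 91.3 CPM in adult, within 2-fold. Snap25, another SNARE protein, was at 919, 1019, 1818 and 4786 CPM, its widest step between P10 and adult. Vamp1, the vesicle SNARE, was at 10.1, 10.2, 39.9 and 158 CPM, and the vesicle protein synaptophysin (Syp) at 237, 542, 1341 and 1468 CPM. Of 15 genes of neurofilaments and axons tested, 5 were at least 2-fold higher and 1 lower, with a median log2 ratio of 0.13. Nefl was at 26.2 CPM at P4 and 138 CPM in adult, and the tau gene Mapt at 3452 and 796 CPM.

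**Figure D3:**
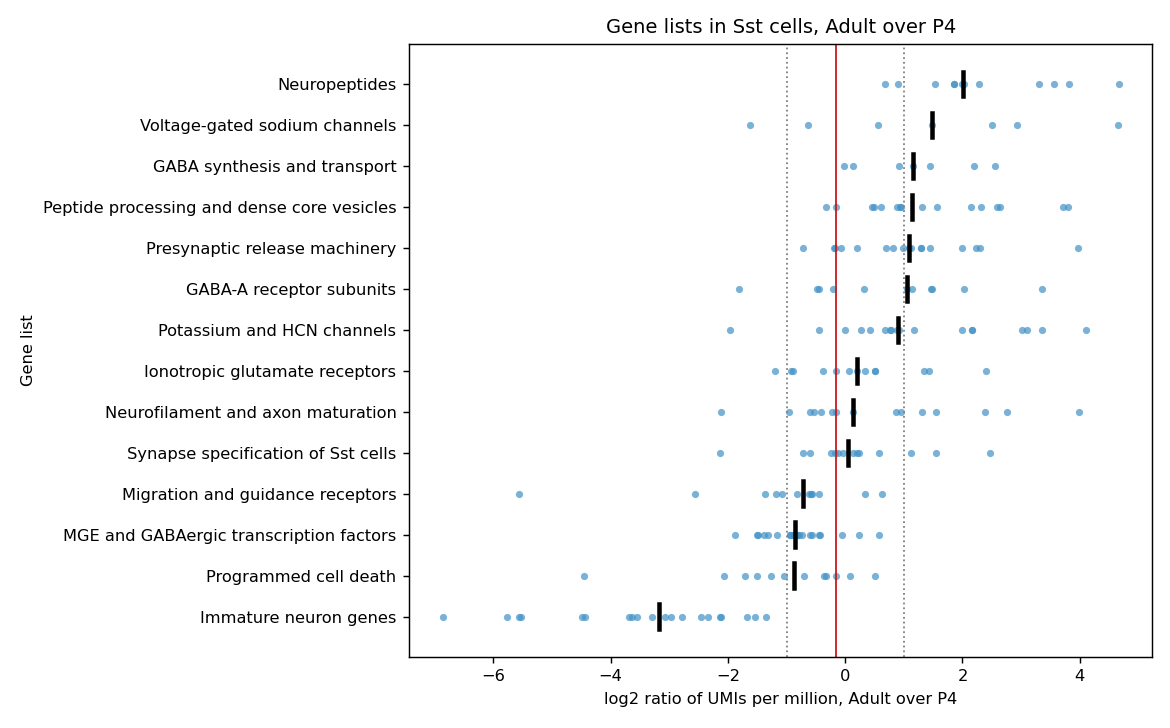
Each point is 1 tested gene, placed by its log2 ratio of CPM in Sst cells, adult over P4, in the row of its list; black bars are list medians, the red line the median of all 9334 genes tested (-0.15) and dotted lines 2-fold. All 20 immature neuron genes lie beyond 2-fold on the left, and 10 of 12 neuropeptides beyond 2-fold on the right.

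Genes that specify the synapses of Sst cells showed small differences between ages, with a list median of 0.05. Of 14 tested, 3 were at least 2-fold higher in adult than at P4 and 1 lower, where 10.8% and 15.5% of all genes tested were, so these counts are no result about the list. Elfn1, a postsynaptic-to-presynaptic organiser that sets release onto these cells, was at 448, 460.2, 597 and 527 CPM. The levels of Elfn1 in Gad and Lhx6 cells below the Sst limit were 198, 124, 53.1 and 24.1 CPM, lower at each later age. Cbln4, which Sst cells use at their dendritic synapses, was at 4.01, 9.44, 39.2 and 52.1 CPM in Sst cells. In the cells below the limit Cbln4 was at 3.50, 9.76, 11.9 and 4.81 CPM. Nptx2, a pentraxin regulated by activity, was at 25.2, 107, 96.2 and 24.2 CPM, so that its level was high only at P4 and P10 among these 4 libraries.

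Genes with the largest steps between neighbouring ages are named here by the size of their ratio. From P1 to P4 the 5 genes furthest down were Gm20388 (148 CPM at P1 and 0 UMIs at P4), Gm49317, Cmss1, Gm20754 and Dcc. The same drop was present in glutamatergic cells, where Cmss1 was at 487 CPM at P1 and 18.2 CPM at P4, against 445 and 16.5 CPM in Sst cells. Of the 5 furthest up, Gm10076 and Rpl10-ps3 are predicted or pseudogene copies of ribosomal protein genes, whose reads may be split with their parent genes, and Thy1, Scg2 and Nrgn are neuronal. Thy1 went from 20.3 to 179 CPM. Nrgn, a gene of glutamatergic neurons, went from 31.5 to 257 CPM in Sst cells and from 242 to 1737 CPM in glutamatergic cells.

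From P4 to P10 the 5 genes furthest up were Tuba4a, Calb2, Lgals1, Vgf and Slc30a3, and the 5 furthest down Mex3a, Sox11, Cd24a, Ttc28 and St8sia2. Lgals1, which encodes the lectin galectin 1, was at 1.12, 17.1, 187 and 255 CPM in Sst cells. In Gad and Lhx6 cells below the Sst limit it went from 2.28 CPM at P4 to 126.9 CPM in adult, a log2 ratio of 5.80 against 3.90 in Sst cells. In glutamatergic cells Lgals1 did not exceed 2.08 CPM, and in microglia it was highest at P1 with 115 CPM. St8sia2, the enzyme that adds polysialic acid to NCAM in young neurons, was at 575 CPM at P4 and 106 and 7.82 CPM later.

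From P10 to adult the 5 genes furthest up included Ighg2b, Ighg2c, Ptgds and Igkc, which are best known from antibody-producing cells and meninges, and the 5 furthest down included Tubb2b, St8sia2, Dcx and Dpysl3. Ighg2b, an immunoglobulin heavy chain gene, had 1574 UMIs in adult Sst cells, and 1569 of them lay in 1 cell. Of the 1111 UMIs of Ighg2c, 1078 lay in 1 cell, which also held 2086 of the 4089 UMIs of Igkc. Without the cell that held most of its UMIs, each of these genes was at 0.559 CPM (Ighg2b), 3.69 CPM (Ighg2c) and 224 CPM (Igkc) in place of 176, 124 and 457 CPM. Ptgds was at 121 CPM in adult Sst cells, 111 CPM in adult glutamatergic cells and 277 CPM in adult microglia.

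The most like cells in the same libraries were Gad and Lhx6 cells with Sst below the limit, 3433 in all, which include the Pvalb class. The limit on Sst made both sets, so their difference is a description. Of 7627 genes compared, 56 were at least 2-fold higher in Sst cells in all 4 libraries (0.734%) and 35 at least 2-fold lower (0.459%). Beside Sst, the highest included Pdyn, Chodl, Npy, Slc5a5, Tmem255a, Grin3a, Nos1 and Nr2f2. These ratios are of UMIs summed over all cells of a set, so few cells can set them. After thinning, Nos1 was found in 4.60%, 5.90%, 6.80% and 11.2% of Sst cells and 1.85%, 1.81%, 3.63% and 10.8% of the others. Chodl was found in 2.30%, 5.66%, 3.65% and 2.54% of Sst cells. Npy was higher in the Nos1 and Chodl cells described below than in the other Sst cells in every library. Nr2f2, a factor also listed above as lower with age, had log2 ratios of 2.04, 2.67, 3.20 and 4.15. Grin3a had ratios of 2.37, 2.31, 3.22 and 4.47. Slc5a5, the sodium iodide symporter best known from the thyroid, was at 1.49, 16.6, 49.5 and 119 CPM in Sst cells and 0.261, 2.44, 7.25 and 19.8 CPM in the others. Its level was higher at each later age in both sets, and its log2 ratio lay between 2.51 and 2.77. The P1 ratio rests on few UMIs, with an interval of 0.999 to 4.32, so it cannot show that the ratio stayed the same.

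The 10 lowest in Sst cells were St3gal6, Hapln1, Igsf11, Fam19a2, Ndst3, Tac1, Slitrk2, Klf3, Kcnip2 and Me3. Hapln1, which links hyaluronan in perineuronal nets, was at 3.31, 11.5 and 6.81 CPM in Sst cells from P4 on, and at 35.3, 141 and 85.0 CPM in the cells below the limit. St3gal6, a sialyltransferase, had log2 ratios of -2.43, -2.97, -2.44 and -2.89. The potassium channel subunit gene Kcnip2 was at 22.0 CPM in adult Sst cells and 124 CPM in the others. The direction of these genes held in each library, which is how they were chosen.

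**Figure D4:**
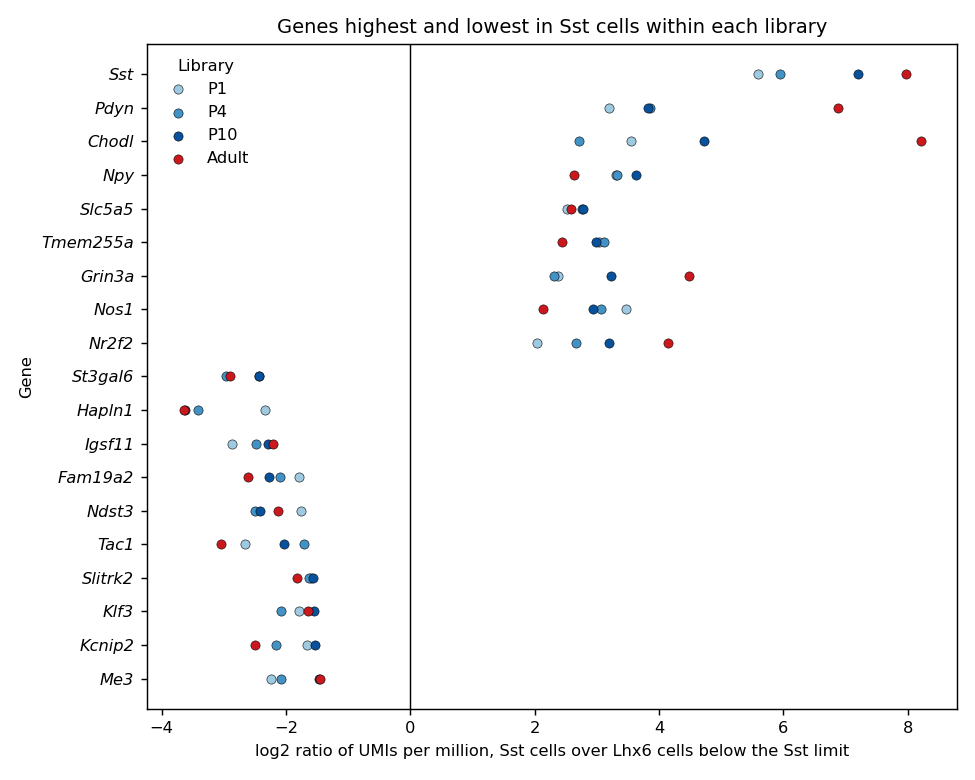
Log2 ratio of CPM in Sst cells over Gad and Lhx6 cells below the Sst limit, for the highest and lowest genes, with 1 point per library; the limit on Sst made the sets. Ratios of Grin3a and Nr2f2 are widest in adult, and those of Slc5a5 lie between 2.51 and 2.77, with a P1 interval of 0.999 to 4.32.

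Markers of Sst subtypes were compared as the share of Sst cells with at least 1 UMI after each cell was thinned to 2000 UMIs, since depth differed between ages. By level, 7 of 13 subtype markers tested were at least 2-fold higher in adult than at P4 and 0 lower, with a median log2 ratio of 1.09. Among the 7 are Hpse, Cbln4, Th and Moxd1, at 4.27, 9.44, 3.47 and 3.47 CPM at P4. They reached the mean of 10 CPM only through later ages, so their direction was partly set by the filter. Calb1, which encodes the calcium-binding protein calbindin, was found in 11.2% of P1 Sst cells, 22.4% of P4 cells (19.6% to 25.4%), 44.4% of P10 cells (40.4% to 48.5%) and 64.2% of adult cells (59.7% to 68.5%). In microglia of the same libraries its share was at most 5.33%, and in glutamatergic cells at most 13.5%, both in adult. In the cells below the Sst limit it was 12.3%, 20.4%, 43.9% and 32.3%. Without thinning the Calb1 shares in Sst cells were 41.7%, 49.6%, 81.1% and 85.8%. Reln, a secreted glycoprotein, was found in 57.5%, 69.1%, 57.0% and 58.7%. Its interval at P4, 65.8% to 72.3%, lay above those of the other ages, and the share at P1 was close to that in adult.

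Calb2, which encodes calretinin and marks a Martinotti class, was found after thinning in 0.862%, 3.69%, 19.1% and 14.4% of Sst cells. The interval reached from 16.01% to 22.4% for P10 and from 11.4% to 17.9% for adult, so the 2 overlapped. Its level was 2.98, 17.9, 203 and 154 CPM. Npy was found in 29.3%, 32.6%, 44.6% and 57.6% of Sst cells. Its share was 7.29%, 14.4%, 7.19% and 5.31% in glutamatergic cells and 10.8%, 15.4%, 14.5% and 17.4% in the cells below the Sst limit. Cort was found in 9.48%, 8.98%, 29.5% and 23.3% of Sst cells. In the cells below the Sst limit Cort was found in 3.37%, 3.84%, 26.2% and 23.0%, close to Sst cells at P10 and in adult. Without thinning, the adult Cort share was 48.2% in Sst cells and 61.2% in the cells below the limit. Pdyn was found in 0 of 348 cells at P1 (interval up to 1.05%) and in 5.04%, 16.3% and 16.9% later. These shares hold for cells of 2000 UMIs, and without thinning 24 of the P1 cells (6.90%) had a Pdyn UMI. In glutamatergic cells Pdyn was found in 8.49% at P10 and 3.11% in adult. Chrna2, a nicotinic receptor subunit gene that marks layer 5 Martinotti cells, was found in 4.24% of adult Sst cells (2.61% to 6.47%), in 1.16% of P10 cells and 0.738% of P4 cells.

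**Figure D5:**
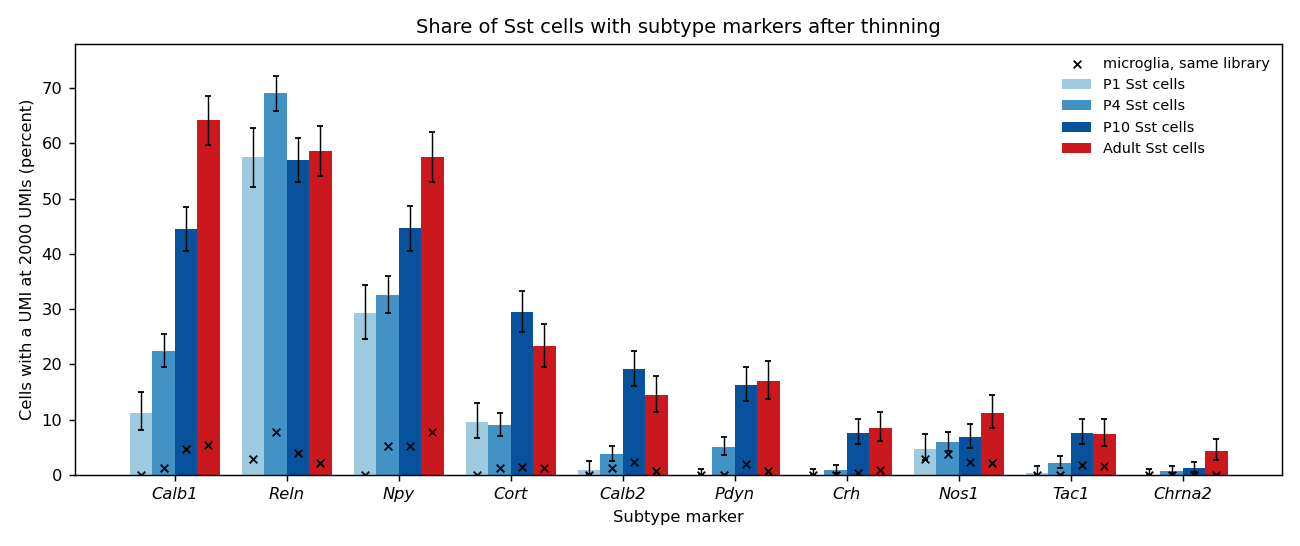
Percent of Sst cells with at least 1 UMI of each marker after thinning every cell to 2000 UMIs, by age (bars, with 95% binomial intervals), with the share in microglia of the same library as a cross. Calb1 goes from 11.2% at P1 to 64.2% in adult, while Reln stays between 57.0% and 69.1%.

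Cells with a UMI of both Nos1 and Chodl, the markers of long-range projecting Sst neurons, were found at every age. They were counted without thinning, so that a deeper cell was more likely to be among them, and numbered 18 P1 cells (5.17%, 3.09% to 8.05%), 53 P4 cells (6.52%, 4.92% to 8.44%), 35 P10 cells (5.79%, 4.07% to 7.97%) and 16 adult cells (3.38%, 1.95% to 5.44%), with overlapping intervals. Nos1 alone does not mark them, since it was found in 65.8% of P1 glutamatergic cells without thinning, and after thinning in 15.1% of these and 4.60% of P1 Sst cells. After thinning Chodl was found in at most 0.164% of glutamatergic cells. Without thinning, Nos1 was found in 44, 116, 141 and 192 Sst cells and Chodl in 32, 132, 68 and 17. Some cells can thus hold a UMI of each by background, and that part of the cells with both was not tested. The lowest Sst level among the cells with both was 10.4, 7.64, 5.61 and 53.8 per 10000. The median Sst level of the Nos1 and Chodl cells, 99.5, 93.1, 205 and 311 per 10000, lay above that of the other Sst cells, 16.6, 22.8, 71.2 and 98.5. The rule used Sst, and the medians move with its limit, so these levels are a description.

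Npy, Tacr1, Penk and Sp9 were higher in these cells than in the other Sst cells in every library. Npy was at 12198, 16762, 19525 and 20937 CPM in the Nos1 and Chodl cells, against 379, 359, 766 and 1905 CPM in the other Sst cells. Tacr1, the receptor for substance P, was at 148, 82.0, 96.2 and 178 CPM, against 2.17, 1.99, 0.847 and 0.932 CPM. Penk was at 151, 163, 536 and 1006 CPM, against 8.48, 18.8, 114 and 76.2 CPM. The transcription factor Sp9 was at 303, 272, 269 and 183 CPM, against 46.1, 27.2, 36.2 and 17.7 CPM. Elfn1 was lower in them, at 214, 169, 254 and 181 CPM, against 461, 481, 619 and 542 CPM in the other Sst cells.

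By size, the 10 genes that separated the 16 adult Nos1 and Chodl cells most from the other adult Sst cells were Chodl, Slc5a7, Ntn1, Ndst4, Tacr1, Adgrg6 and Sfrp1, which were higher, and Reln, Spon1 and Thsd7a, which were lower. Chodl chose these cells, so its place there is set by the choice. Slc5a7, the choline transporter of cholinergic neurons, had 0 UMIs in these cells at P1 and was at 21.7, 50.5 and 146 CPM later, and in adult 9 of the 16 cells had a UMI. Ntn1, which encodes the guidance cue netrin 1, was at 128, 102, 156 and 183 CPM, against 0.350 CPM in the other adult Sst cells. Reln had 2 UMIs in the 16 adult cells (5.31 CPM), against 901 CPM in the other adult Sst cells. At P1, P4 and P10 the Nos1 and Chodl cells had Reln at 218, 265 and 194 CPM. Thsd7a was at 62.9 CPM in them at P1, against 44.5 CPM in the other P1 Sst cells, and at 2.66 against 249 CPM in adult. Calb1 was at 39.1, 82.0 and 291 CPM at P1, P4 and P10 and at 13.3 CPM in adult, from 5 UMIs. The adult values rest on 16 cells of 2 mice, and whether cells of the younger ages are of 1 kind was not tested.

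Calb2, Hpse and Tac1 were each used to divide all Sst cells of P10 and adult, so that 1 cell can be in several of these sets and among the Nos1 and Chodl cells. A deeper cell is more likely to show a marker, and the median depth of adult cells with Calb2, Hpse and Tac1 was 22274, 21178 and 20164 UMIs, against 18738, 18950.0 and 19185.5 UMIs in the cells without. Without thinning, as in these sets, a Calb2 UMI was found in 44.9% of P10 and 25.8% of adult Sst cells, but also in 20.4% and 2.56% of glutamatergic cells and in 11.7% and 2.93% of Gad and Lhx6 cells below the Sst limit. The part of such background in the Calb2 sets was not tested. Sst cells with a Calb2 UMI, 271 at P10 and 122 in adult, had higher Maf (705 against 219 CPM at P10 and 498 against 146 CPM in adult) than those without. Cbln4 was at 61.9 against 18.4 CPM and 136 against 16.7 CPM in the same pairs. Nr2f2 and Erbb4 were lower in the Calb2 cells, with Nr2f2 at 51.9 against 181 CPM in adult and Erbb4 at 146 against 458 CPM. Cells with Hpse, an endoglycosidase gene that marks another Martinotti class, numbered 96 at P10 and 56 in adult. Their Pdyn was at 479 against 124 CPM and 1097 against 195 CPM, and their Reln at 1864 against 861 CPM and 1766 against 715 CPM. The Hpse cells were thus rich in both the dynorphin precursor and reelin at both ages.

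Sst cells with a Tac1 UMI numbered 90 at P10 and 59 in adult. Their median Sst level, a description since the rule used Sst, was 21.8 per 10000 at P10 and 26.1 in adult, against 79.1 and 108 in the cells without Tac1. Erbb4 was at 816 against 212 CPM at P10 and 1047 against 269 CPM in adult, and Elfn1 at 128 against 677 CPM and 249 against 566 CPM. Pvalb, the marker of the sister class of MGE interneurons, was at 97.5 CPM in adult Tac1 cells and 4.59 CPM in the other adult Sst cells. In adult Gad and Lhx6 cells below the Sst limit Pvalb was at 660.1 CPM and Tac1 at 772 CPM. The 7 Pvalb class markers summed to 292 CPM in all adult Sst cells and 2382 CPM in those below the limit, and their part in the values of the Tac1 cells was not tested.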

How the data were processed

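Whole-transcriptome libraries of PFC cells were made on the BD Rhapsody platform, 1 library per age. The authors ran the BD Rhapsody pipeline and deposited a table of counts per age, each value being the number of UMIs of 1 gene in 1 cell after the pipeline's correction of UMI errors. Per the file headers, P1, whose library is named P0 there, was processed with pipeline version 1.11, with Enhanced beads and intronic reads not excluded, and the other ages with version 1.8, whose headers name neither. The methods name 1.11 for all. The submitters' notes give mm10, and the headers an annotation of GENCODE M19. Gene coordinates were read here from M21. P1 levels cannot be told apart from this difference in pipeline.

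Cells with at least 1000 UMIs, 1000 genes and at most 15% mitochondrial UMIs were kept, and doublets stayed in, with cells marked by Scrublet (expected rate 0.06) left out as an alternative. UMIs were summed over the Sst cells of an age and divided by the UMIs of all genes except 13 mitochondrial and 84 ribosomal protein genes. Ratios carry exact conditional binomial intervals, levels exact Poisson intervals and shares Clopper-Pearson intervals, all at 95%. No test between ages was run, since each age was 1 library. A gene was tested at a mean of at least 10 CPM, called at 2-fold, and a group at 0 was set at a floor of 3 UMIs. The ratio script was tested on simulated counts.

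Cells for reference were microglia (Cx3cr1, P2ry12, Csf1r and C1qa summing to at least 10 UMIs per 10000), glutamatergic cells (Slc17a7, Neurod6 and Neurod2 summing to at least 5 per 10000, with Gad1 and Gad2 under 1) and Gad and Lhx6 cells below the Sst limit. Genes named in the text were any gene of the lists, the 5 furthest up and down at each step among those of at least 100 CPM at the higher age, and the 10 highest and 10 lowest in Sst cells over the cells below the limit among those of at least 20 CPM mean and 1 direction in all 4 libraries. The 10 widest between adult cells with and without Nos1 and Chodl, of at least 100 CPM in either, were named too. A few genes that the rule names are not reported here. The members and the lists were chosen with earlier results of these data known. Alternatives were another Sst limit, no Lhx6 condition, stricter cell filters, another denominator, the mean over cells, thinning to 2000 UMIs (seed 1) and the split of P1 cells by Y-linked and Xist UMIs. Python 3.11.15, numpy 2.4.6, scipy 1.17.1, scanpy 1.11.5 and matplotlib 3.10.9 were used.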

Additional observations from a re-analysis of the deposited data

Results flagged for a closer look

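Calb2 had opposite directions in Sst cells and in Gad and Lhx6 cells below the Sst limit. Its log2 ratio of adult over P4 was 3.11 in Sst cells, from 17.9 to 154 CPM, and -3.19 in the cells below the limit, from 19.0 to 2.08 CPM. With 1 library per age and set, the difference between the ratios was not tested. After thinning, Calb2 was found in 1.73% of the cells below the limit at P4 and 0.244% in adult. Its share was 1.49% and 0.475% in glutamatergic cells and 1.28% and 0.73% in microglia. At each age the intervals of these shares overlapped, and in Sst cells the share was 3.69% and 14.4%. The part of such background in the ratio of -3.19 was not tested.

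Y-linked transcripts were present in the P1 library, whose mice the methods give as female. They made up 134 UMIs per 1000000 in P1 Sst cells, against 0, 0.201 and 0.105 in the later Sst cells. Over all cells of each library the values were 109.5, 0.114, 0.116 and 0.176.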

How the results depend on the processing

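No paired analysis was possible because each age had 1 library and no result came from a test. The share of Sst cells, 3.01%, 4.28%, 3.95% and 3.36%, moved beyond its counting interval under 5 alternatives. With an Sst limit of 2 per 10000 it was 3.87%, 5.05% and 4.42% in the P1, P4 and P10 libraries. With a limit of 20 it was 1.35%, 2.498% and 3.33% there, so the rank of the ages depends on the limit. Without the Lhx6 condition it was 4.62% in P10 and 5.22% in adult, the highest of the 4 in place of P4. With Sst cells holding glutamatergic RNA left out, and the total kept, so that the share could only fall, it was 2.57%, 3.09%, 3.29% and 2.72%. Under the stricter filter, which takes cells from the total too, it was 3.94% in adult. The immature neuron median of -3.18 became -3.075 without cells holding glutamatergic RNA, -3.00 as a mean over cells and -2.95 after thinning. The presynaptic median of 1.09 became 1.13 at the Sst limit of 2, 1.03 at the limit of 20, 1.05 without the Lhx6 condition, 1.03 without cells holding glutamatergic RNA, 1.16 as a mean over cells and 1.21 after thinning. The medians of GABA-A receptor subunits, potassium and HCN channels, MGE and GABAergic transcription factors and peptide processing genes moved by less than their counting intervals, and the medians of the other lists were not recomputed. Of 362 gene ratios past 2-fold, 331 stayed past it after thinning and 335 at the Sst limit of 20, the lowest counts. Ratios that changed sign were those of low genes. After thinning they were -0.80 (Igkc), -1.80 (Th) and -1.22 (Vip) for P4 over P1, -0.0016 (Igkc) for P10 over P4 and 0.34 (Igfbpl1) for adult over P10. With P1 cells that had Y-linked and no Xist UMIs, Adarb2 was at 0.30 for P4 over P1. The causes were not tested. Leaving out the single cell with most UMIs of a gene was chosen after seeing the data. Depth limits levels and ratios of genes with few UMIs, and no replicate was there to give a biological error.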
